A study of Solanum lycopersicum with 24 samples.

Results

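The transcripts described here are 150 tomato leaf transcripts whose RNA leaned towards the monosome fraction over the polysome fraction in each of 4 temperature conditions. They were taken from the 3060 curated (NM_) or predicted (XM_) RefSeq transcripts that averaged at least 10 TPM, a share of all transcripts corrected for length, in the monosome libraries of every condition. The deposited table holds 37476 such transcripts among 45845 in all. For each condition, 1 was added to the mean monosome TPM and to the mean polysome TPM, the log2 of their ratio was taken, and the median of that ratio over the 3060 transcripts was subtracted. The score of a transcript was the lowest of its 4 centred ratios, and the 150 highest scores made the set. A value of 0 therefore marks the middle transcript of a condition and not an equal amount of RNA in both fractions. The monosome and polysome values chose the members, so they are given below as a description and carry no test. The total RNA libraries took no part in the choice, and the tests are made on them. The ratio was nevertheless related to the total RNA change at 0 °C over the ranked transcripts, as given below. The tests at 0 °C are therefore not independent of the choice.

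A monosome is an mRNA carrying a single ribosome, and a polysome is an mRNA carrying several ribosomes at once. The fractions are separated by centrifugation through a density gradient, after inhibitors have frozen the ribosomes in place. An mRNA is found mostly in monosomes when its reading frame is too short for more ribosomes, when ribosomes start on it seldom, or when it is being moved into or out of translation. In plants, cold slows initiation and elongation, and mRNAs move between the fractions as leaves are chilled.

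The study compared leaves of 28-day-old tomato plants (Solanum lycopersicum, selection line YaLF) grown at 25 ± 1 °C, to set changes in RNA level beside changes in ribosome loading. Hardening plants spent 5 days at 6 °C according to the labels, or at 4 °C according to the methods of the study. Stress plants were held at 0 °C for 2 h, Combo plants were hardened and then held at 0 °C for 2 h, and Control plants were neither hardened nor chilled and were kept at 22 °C according to the methods. Each condition has 2 libraries of the monosome fraction, 2 of the polysome fraction and 2 of total RNA, 24 libraries in all, made from poly(A)-selected RNA. By the methods, the Stress and Combo leaves were taken 2 h later in the day than the others, so chilling at 0 °C and time of day cannot be told apart. The methods call the 2 libraries technical repeats, while the column headings call them biological replicates, so the spread between them may be technical.

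Every library sums to 1000000 TPM and its read depth is not kept in that unit. The 2 libraries of a group correlated at 0.918 to 0.976 for monosomes, at 0.958 to 0.995 for polysomes and at 0.984 to 0.990 for total RNA (Pearson's r of log2 values over the 3060 transcripts). The 10 most abundant transcripts took 10.3 to 68.9% of a monosome library, 11.02 to 60.02% of a polysome library and 6.67 to 15.9% of a total RNA library. Leaf genes were abundant in the Control total RNA, where the small Rubisco subunit RBCS1 averaged 11083 TPM and the chlorophyll-binding protein CAB1B 9327 TPM. The fruit gene E8 and the pollen gene LAT52 reached at most 0.133 and 0.788 TPM in any total RNA library. Other markers were less clear. A transcript of the fruit marker PSY1 reached 122 TPM in total RNA. The seed marker LE25 averaged 2.10 TPM in Control but reached 1883 TPM in another library, and the leaf marker CAB12 fell to 1.97 TPM in 1 library.

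The fraction libraries of 2 conditions went against their labels when they were set against total RNA. Over the 3060 transcripts, the 4 fraction libraries labelled Hardening correlated at 0.558 to 0.584 with the total RNA of Hardening leaves at 0.848 to 0.905 with that of Control leaves and at 0.816 to 0.910 with that of Stress leaves. The 4 fraction libraries labelled Stress correlated at 0.443 to 0.518 with the total RNA of Stress leaves at 0.823 to 0.883 with that of Hardening leaves and at 0.835 to 0.846 with that of Combo leaves. Those labelled Combo correlated at 0.883 to 0.945 with the total RNA of Combo leaves, and 3 of these 4 libraries correlated more with that of Hardening leaves, at 0.927 to 0.947. Those labelled Control correlated best with the total RNA of their own label, at 0.829 to 0.887. Whether any library carries a wrong condition, and whether of a fraction or of total RNA, cannot be told from these values. The tests on total RNA below take its labels as given. Monosome and polysome libraries of 1 label deviated to the same side, unhardened or hardened, but did not always match the same total RNA best. Those labelled Hardening correlated best with Control in monosomes (0.848 and 0.864) and with Stress in polysomes (0.910 and 0.906). Those labelled Stress correlated best with Hardening in monosomes (0.882 and 0.883) and with Combo in polysomes (0.836 and 0.835). Whether a ratio within these labels compares libraries of 1 condition cannot be told. The labels Hardening and Stress are kept below as names of fraction libraries only, and ratios of a fraction to total RNA are read in Combo and Control.

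The lean of the members was modest for most of them and large for a few. The scores ran from 1.10 at rank 1 down to 0.04 at rank 150. A single member scored at least 1, 8 members scored at least 0.5, and 50 scored under 0.1. The last members inside, XM_004248265.4 and XM_004235612.4, scored 0.04, and the first transcripts outside, NM_001329219.1 and NM_001346828.1, scored 0.04 as well. The edge of the set thus fell in a dense part of the ranking. The lowest of the 4 ratios came from Combo in 61 members, from Hardening in 36, from Stress in 27 and from Control in 26.

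By condition, the median centred ratio of the members was 0.42 in libraries labelled Hardening (range 0.05 to 3.73), 0.36 in Stress (0.04 to 3.38), 0.25 in Combo (0.05 to 1.77) and 0.47 in Control (0.04 to 4.90). The spread over all 3060 transcripts was narrowest in Combo, with an SD of 0.41, against 0.74 in Hardening, 0.68 in Stress and 0.79 in Control. On the TPM as deposited, the mean monosome value exceeded the mean polysome value in all 150 members in Stress and in Combo, in 137 in Control and in 103 in Hardening. The same held for 81.7%, 55.7%, 44.4% and 34.5% of the 3060 transcripts in that order of conditions.

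**Figure D1:**
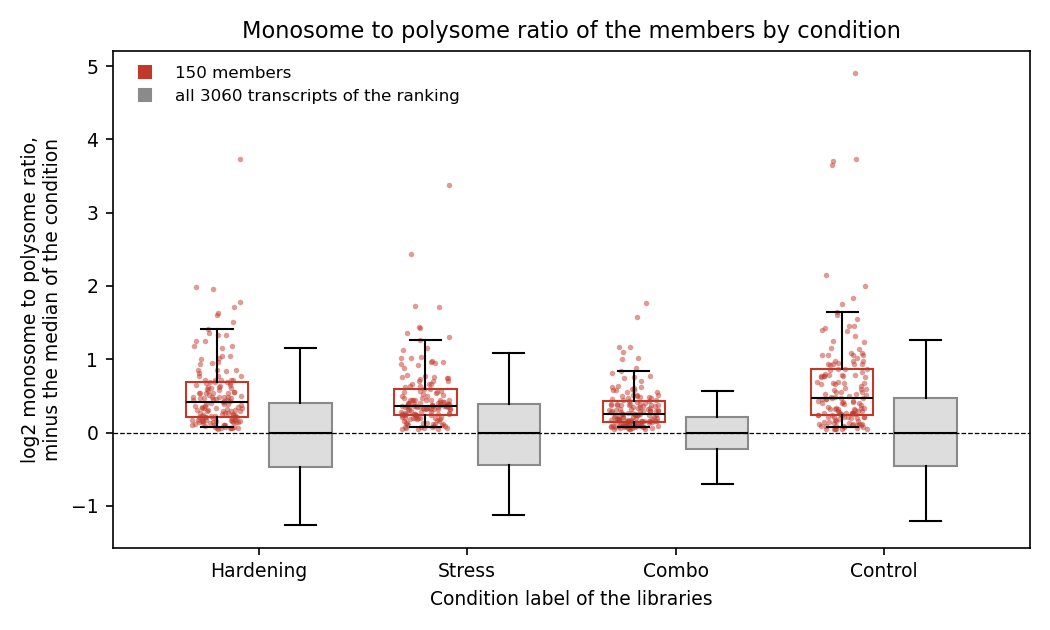
Centred log2 ratio of monosome to polysome TPM (vertical axis) for the 150 members (red points and boxes) and for the 3060 transcripts they were ranked among (grey boxes), by the condition label of the libraries. Boxes span the quartiles, lines mark medians and whiskers reach the 5th and 95th percentiles. All members lie above 0 because the rule required it, with medians of 0.42 in Hardening, 0.36 in Stress, 0.25 in Combo and 0.47 in Control.

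A ratio above the median in all 4 conditions was found in 202 of the 3060 transcripts, or 6.60%, and a ratio below it in all 4 in 187, or 6.11%. The product of 4 shares of 50% is 6.25%, and both shares lay near it. The ratios of different conditions were related in part, and in both directions. Over the 3060 transcripts, the ratio correlated positively between Hardening and Control (Pearson's r = 0.46) and between Stress and Combo (0.35). It was negative for Hardening with Stress (-0.34) and for Stress with Control (-0.30), and there was hardly any for Hardening with Combo (0.01) or Combo with Control (-0.05). These are correlations across transcripts, which share libraries and are not independent replicates.

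Replicate libraries set the size of the error. The ratio of the libraries numbered 1 and that of the libraries numbered 2 correlated at 0.842 in Hardening, 0.684 in Stress, 0.508 in Combo and 0.599 in Control. The median absolute difference between the replicate ratios of a member was 0.26 in Hardening, 0.35 in Stress, 0.24 in Combo and 0.33 in Control. For the 50 members that scored under 0.1, the lean in the weakest condition was thus smaller than the usual distance between replicates. In 63 of the 150 members (42.0%) all 8 replicate ratios lay above 0, against 70 of the 3060 transcripts (2.29%). The rule chose the members on the same libraries, so this difference follows from the choice and nothing is read from it.

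Both monosome libraries lay above both polysome libraries, each centred on its own median, in 136 members in Hardening, 109 in Stress, 111 in Combo and 110 in Control. The background over the 3060 transcripts was 42.8% in Hardening, 33.2% in Stress, 30.5% in Combo and 35.1% in Control, and nothing is read from these counts because the rule used the same libraries. The separation held in all 4 conditions in 57 members, in 3 conditions in 60, in 2 in 26, in 1 in 6 and in none in 1. Over the 3060 transcripts it held in all 4 conditions in 61, or 1.99%.

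A choice made on 1 replicate can be read in the other. A list of 150 chosen in the same way on the libraries numbered 1 had 54 transcripts (36.0%) above the median in all 4 conditions in the libraries numbered 2, where the background was 5.99%. A list chosen on the libraries numbered 2 had 58 (38.7%) in the libraries numbered 1, where the background was 6.63%. These lists shared 80 and 82 transcripts with the members and 43 with each other. The shares of 36.0% and 38.7% include what the background alone would give. The 2 libraries may be technical repeats, so these shares describe how far a list repeats between libraries of a label. They do not show that the lean belongs to a condition.

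A choice made in some conditions carried over to only part of the others. By construction, 50% of the ranked transcripts lie above 0 in a condition. A list chosen on Control and Combo, the conditions whose fraction libraries correlated at 0.829 or more with their own total RNA, shared 35 transcripts with the members. Read in the libraries labelled Hardening, its median ratio was 0.22, with 89 of 139 transcripts (64.0%) above 0. In the libraries labelled Stress its median ratio was -0.04, with 65 of 139 (46.8%) above 0, so it did not carry over there. A list chosen on Hardening and Stress had a median ratio of 0.21 in Combo, with 80 of 102 (78.4%) above 0. In Control its median ratio was 0.03, with 53 of 102 (52.0%) above 0, near the share by construction.

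The members with the highest scores were predicted transcripts without a gene symbol beyond their locus number, and several were scarce in total RNA. At rank 1, XM_026027867.1 (LOC101256723) had monosome values of 121 and 120 TPM in Hardening, 23.8 and 31.1 in Stress, 22.3 and 25.9 in Combo and 53.2 and 106 in Control. Its polysome values were 43.7 and 46.6 TPM in Hardening, 1.67 and 0 in Stress, 12.8 and 7.93 in Combo and 0 and 36.7 in Control. The fractions did not overlap in any condition, although the polysome libraries of Control were far apart. In total RNA it had only 2.16 and 2.86 TPM in Hardening, 6.68 and 12.7 in Stress, 0.537 and 0 in Combo and 14.1 and 15.3 in Control. The monosome values of XM_010326736.3 (LOC101260845, rank 2) were 45.9 and 36.3 TPM in Hardening and 42.7 and 30.4 in Combo, against polysome values of 18.3 and 8.48 in Hardening and 25.2 and 12.5 in Combo. In Stress its monosome libraries stood at 6.97 and 24.7 TPM against 6.76 and 2.28 in polysomes, and in Control at 17.3 and 6.12 against 4.76 and 7.10. Its Control libraries overlapped on these values, its Stress libraries did so once centred, and only 6 of its 8 replicate ratios lay above 0.

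The widest gap between fractions was at rank 4. XM_026031579.1 (LOC101250811, rank 4) had 94.99 and 112 TPM in the monosome libraries labelled Hardening, against 8.09 and 8.46 TPM in the polysome libraries, a centred ratio of 3.73. In Control it had 17.004 and 36.9 TPM in monosomes and is listed at 0 in both polysome libraries, so the ratio of 4.90 there depends on the 1 TPM added. A second transcript of its locus, XM_004241776.4, was also ranked and scored -1.64, far below the median, with polysome values of 177 and 178 TPM in Hardening. Reads shared by transcripts of 1 gene are divided by a model, so the values of such a pair are less certain than those of genes with 1 transcript. XM_010315883.3 (LOC101254767, rank 3) had 202 and 106 TPM in monosomes and 109 and 104 TPM in polysomes in Hardening, and 14.1 and 19.4 TPM against 9.54 and 0 in Combo.

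XM_026030892.1 (LOC101250013, rank 5) and XM_004232445.4 (LOC101260685, rank 6) leaned to monosomes in all 8 replicate ratios. In monosomes, XM_026030892.1 had 54.9 and 43.6 TPM in Hardening, 13.4 and 15.7 in Stress, 11.1 and 11.8 in Combo and 18.8 and 18.5 in Control. Its polysome values were 21.6 and 20.9 TPM in Hardening, 3.87 and 2.29 in Stress, 4.42 and 4.28 in Combo and 13.5 and 10.9 in Control, so the fractions stood apart in every condition. XM_004232445.4 was more abundant, with monosome values of 538 and 338 TPM in Hardening, 129 and 123 in Stress, 141 and 170 in Combo and 124 and 97.0 in Control. In polysomes it had 134 and 129 TPM in Hardening, 62.0 and 52.1 in Stress, 86.7 and 61.4 in Combo and 65.5 and 53.6 in Control. The replicate ratios of XM_004232445.4 differed most in Combo, at 0.76 and 1.30, and in Hardening, at 2.16 and 1.71. No monosome library of either transcript fell as low as a polysome library of its condition.

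Of the 150 members, 142 were found in the RefSeq gene table of assembly SLM_r2.1, as 142 different genes. Curated NM_ transcripts made up 21 of them, or 14.0%, against 21.99% of the 3060 ranked transcripts, and 12 members (8%) had a gene symbol beyond a locus number, against 13.8%. In 109 of the 142 the gene had a single transcript in the deposited table, in 33 it had others, in 3 another transcript was ranked, and in none was another transcript a member. The sequences and protein lengths of the members were not analysed here.

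The symbols named genes of varied roles. MBF1a encodes a multiprotein bridging factor, a coactivator of transcription. Its monosome values were 69.7 and 64.3 TPM in Hardening, 477 and 694 in Stress, 342 and 200 in Combo and 99.7 and 86.9 in Control. Its polysome values were 36.6 and 40.9 TPM in Hardening, 370 and 290 in Stress, 261 and 188 in Combo and 69.1 and 69.0 in Control. The fractions stood apart on these values except in Combo, where the lower monosome library, 200 TPM, was below the higher polysome library, 261 TPM. ERF2, an ethylene response factor that binds DNA, had 96.5 and 70.3 TPM in monosomes and 38.4 and 38.9 TPM in polysomes in Hardening, its widest gap, with a centred ratio of 1.33. In Combo it had 128 and 147 TPM in monosomes against 121 and 111 in polysomes, a centred ratio of 0.20. SAP8 encodes a stress-associated protein with A20 and AN1 zinc fingers. It had 15.1 and 15.8 TPM in monosomes and 7.35 and 4.05 TPM in polysomes in Control, a centred ratio of 1.39. In Combo its fractions overlapped, at 134 and 166 TPM in monosomes and 145 and 119 TPM in polysomes.

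Among genes for organelle proteins, TIM10 encodes a small chaperone of the mitochondrial intermembrane space that escorts membrane proteins. It had 535 and 526 TPM in monosomes against 289 and 226 in polysomes in Stress, and 490 and 544 against 397 and 371 in Combo. In Hardening, its weakest condition, it had 174 and 144 TPM in monosomes and 151 and 183 TPM in polysomes, which overlapped, so that only the centring placed it above 0, at 0.17. INFA encodes the plastid translation initiation factor IF-1, which helps start protein synthesis in chloroplasts. It had 73.9 and 58.2 TPM in monosomes against 42.9 and 33.8 in polysomes in Control, and 56.4 and 59.1 against 35.8 and 34.6 in Stress. FtsZ1, a tubulin-like protein of the plastid division ring, and Dof22, a zinc-finger transcription factor, sat near the edge of the set with scores of 0.06 and 0.07. Both were named after their values were seen.

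The remaining symbols were amadh2, VGT1, ide and CPA, with scores between 0.10 and 0.21. The gene amadh2 encodes an aminoaldehyde dehydrogenase, an enzyme that can form osmoprotectants. It had 134 and 98.9 TPM in monosomes against 86.6 and 93.1 in polysomes in Hardening, and 35.9 and 37.9 against 39.5 and 33.3 in Control, where the fractions overlapped. VGT1, named after a vacuolar glucose transporter of Arabidopsis, had 17.2 and 20.2 TPM in monosomes and 11.8 and 15.3 TPM in polysomes in Combo, and stayed under 30 TPM in every fraction library. For ide the ratios ran from 0.21 in Hardening to 0.60 in Control, and for CPA from 0.11 in Combo to 0.45 in Stress.

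**Figure D2:**
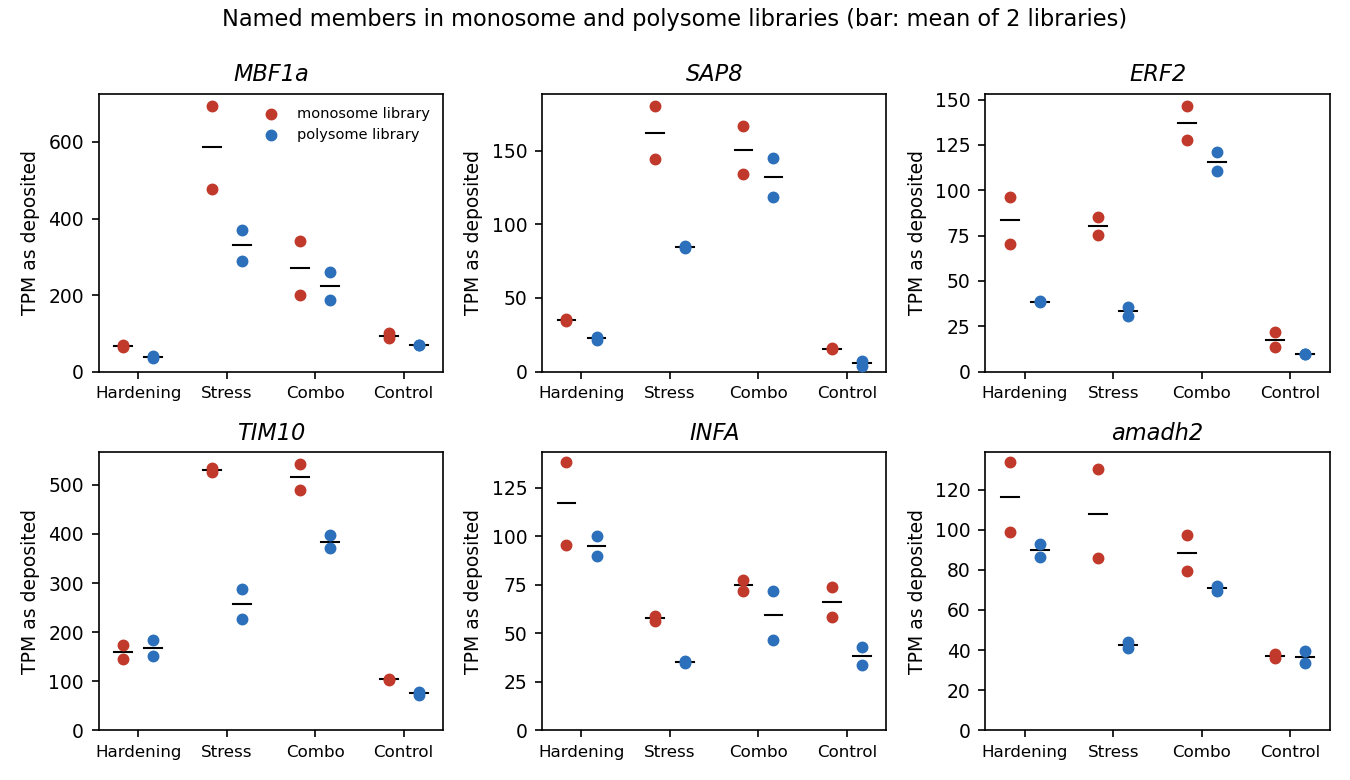
TPM as deposited (vertical axes, linear from 0) of 6 members with gene symbols in the monosome (red) and polysome (blue) libraries of each condition. Points are libraries and bars are means of 2. The fractions lie apart for TIM10 in Stress (535 and 526 TPM against 289 and 226 TPM) and overlap for SAP8 in Combo (134 and 166 TPM against 145 and 119 TPM). In Stress the monosome mean exceeded the polysome mean in 81.7% of the ranked transcripts, and the centred replicate ratios of TIM10 there were 0.55 and 0.46.

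The gene lists, matched by symbol, hold 83 of the 3060 ranked transcripts (2.71%), and 3 of these (3.61%) were members, near the 4.90% of all ranked transcripts that were. None of the 22 ranked transcripts for light harvesting, photosystem and small Rubisco proteins was a member, and none was on the polysome side either, meaning the 150 transcripts whose highest ratio was lowest. Their median ratio changed with the condition, at -0.10 in Hardening, 0.27 in Stress, 0.50 in Combo and -0.79 in Control. Of 25 ranked transcripts on the transcription factor list, 1 was a member (ERF2) and 6 were on the polysome side. Their median ratios were 0.24 in Hardening, -0.87 in Stress, -0.57 in Combo and 0.01 in Control. That list does not cover every family, and the member Dof22, also a transcription factor, is not on it. Of 9 translation factors 1 was a member (INFA), and of 7 cytosolic ribosomal protein transcripts 1 was a member. No member was found among 5 transcripts of genes with regulatory upstream reading frames, 4 histone, 4 kinase or phosphatase, 3 ubiquitin or SUMO, 3 small defence or metal protein and 3 cold-gene transcripts. Only the 13.8% of ranked transcripts with a symbol could be matched to a list.

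In Combo, where 3 of 4 fraction libraries correlated more with Hardening than with Combo total RNA, the members stood above the middle transcript in monosomes relative to total RNA. Their median centred log2 ratio of monosome to total RNA was 0.45, with 88.7% above 0, and that of polysome to total RNA was 0.21, with 73.3% above 0. In Control the monosome ratio was 0.37, with 74.0% above 0, and the polysome ratio was -0.23, with 38.7% above 0. The Control value for polysomes was -0.09 with replicate 1 left out. By these medians the members were above the middle transcript in both fractions in Combo and only in monosomes in Control. In libraries labelled Hardening and Stress, which stood apart from the total RNA of their label, the monosome ratios were 0.43 and 0.66.

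The members were less abundant in total RNA than the ranked transcripts as a whole. Their median was 69.3 TPM in Hardening, 54.2 in Stress, 54.0 in Combo and 60.7 in Control, against 93.0 in Hardening, 78.2 in Stress, 87.7 in Combo and 78.7 in Control for all 3060. XM_026027705.1, at rank 37, is listed at 0 in all 8 total RNA libraries, while it had 30.2 to 65.3 TPM in monosome libraries and 4.57 to 42.6 TPM in polysome libraries. It was the only one of the 3060 transcripts with that pattern, and it could not be tested in total RNA. All other members were tested.

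Total RNA was compared between conditions with limma on log2(TPM + 1) after trimmed-mean scaling of the libraries, over 21979 transcripts. A change was called at a Benjamini-Hochberg adjusted p under 0.05 and a log2 change past 1 in either direction. Fold changes on this scale understate those of scarce transcripts. In leaves the amount of a transcript per cell and the share of cells that hold it cannot be told apart.

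At 0 °C all called members were lower, both in unhardened and in hardened leaves. In Stress against Control, 13 members (8.72%) were called lower and 0 higher, where the background over all transcripts was 2.1% lower and 2.09% higher, and over the ranked transcripts 2.32% lower and 1.08% higher. The median log2 change of the members was -0.34, against -0.16 for the ranked transcripts and -0.04 for all transcripts. Below 0 were 130 of the members (87.2%), against 73.4% of the ranked and 54.5% of all transcripts. Without further scaling of the TPM, 116 members were below 0. Without a minimum size, the adjusted limma test placed 38 members lower and 1 higher, where the ranked transcripts gave 16% lower and 4.87% higher. At an unadjusted p under 0.05, 3 members were higher. With replicate 1 left out, the calls were 6 lower and 1 higher, and with replicate 2 left out, 9 lower and 0 higher.

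In Combo against Hardening, 16 members (10.7%) were called lower and 0 higher, where the background over all transcripts was 2.27% lower and 1.91% higher, and over the ranked transcripts 4.22% lower and 1.83% higher. The median log2 change of the members was -0.28, against -0.08 for the ranked transcripts and -0.00 for all transcripts. Below 0 were 133 members (89.3%), against 60.1% of the ranked and 50.3% of all transcripts. Without further scaling of the TPM, 136 members were below 0. Without a minimum size, 43 members were lower and 0 higher by adjusted p, where the ranked transcripts gave 19.6% lower and 10.4% higher, and at an unadjusted p under 0.05 a single member was higher. The calls rested on both replicates. With replicate 1 left out, limma called 0 members and 0 of all 21979 transcripts (43 members and 4053 transcripts had an unadjusted p under 0.05), with 124 members below 0 and a median of -0.23. With replicate 2 left out, 6 members were called lower.

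**Figure D3:**
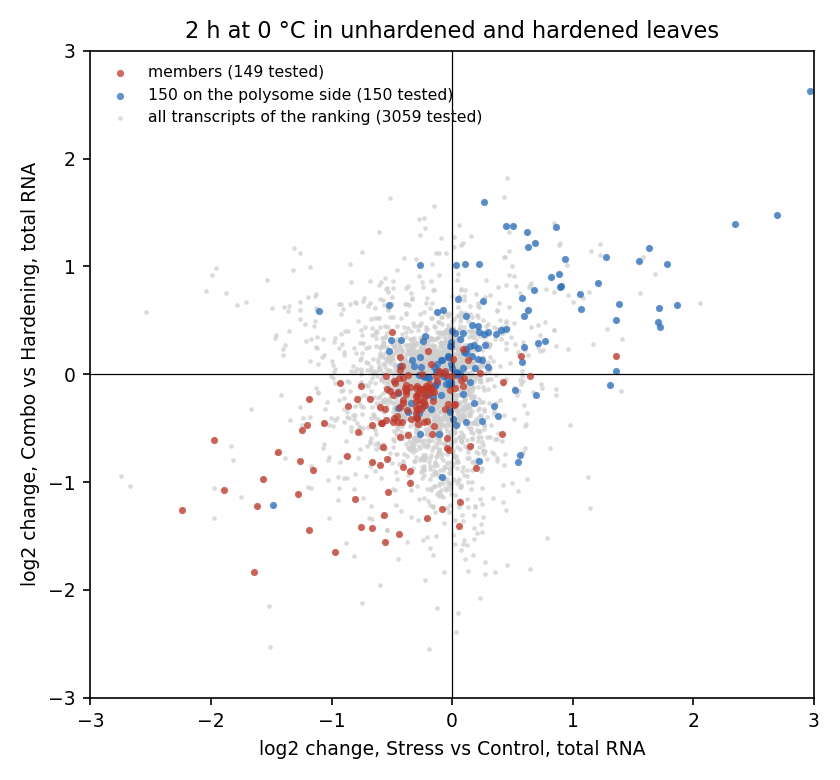
Log2 change of total RNA at 0 °C in unhardened leaves (Stress against Control, horizontal axis) and in hardened leaves (Combo against Hardening, vertical axis), for the members tested (red), the 150 transcripts on the polysome side (blue) and all 3059 tested transcripts of the ranking (grey). Of the members, 120 lie below 0 on both axes and 6 above 0 on both, and 3 transcripts, none of them a member, lie outside the axes.

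The direction was shared by most members. The log2 change was below 0 in both comparisons in 120 members (80.5%) and above 0 in both in 6, while 46.6% of the ranked transcripts and 30.4% of all transcripts were below 0 in both. These comparisons have no library in common. With 87.2% and 89.3% of the members below 0 in the single comparisons, most had to be below 0 in both. Agreement beyond that was not tested. Of the 13 members called lower in Stress and the 16 called lower in Combo, 4 were the same, which is 30.8% and 25.0% of the lists. On the TPM as deposited, both Stress libraries were below both Control libraries in 69 members (46.0%), against 29.7% of the ranked transcripts, and both Combo libraries below both Hardening libraries in 109 (72.7%), against 46.6%.

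The 4 members called lower in both comparisons were XM_004232445.4, XM_026030892.1, XM_004241227.4 (LOC101262623) and XM_004249248.4 (LOC101266280). The first of them had 112 and 101 TPM in total RNA of Stress leaves, against 323 and 282 TPM in Control leaves, and 38.7 and 32.7 TPM in Combo leaves, against 140 and 124 TPM in Hardening leaves. The groups were far apart, and the log2 changes were -1.64 (SE 0.13, adjusted p = 9.87e-04) and -1.83 (SE 0.13, adjusted p = 6.97e-04) by limma. Total RNA of XM_026030892.1 was at 10.6 and 9.41 TPM in Stress leaves, against 38.2 and 33.7 TPM in Control leaves, and at 4.10 and 2.95 TPM in Combo leaves, against 9.25 and 8.20 TPM in Hardening leaves. Its call in Stress was lost with either replicate left out (limma adjusted p = 0.0613 and 0.0516), with log2 changes of -1.91 and -1.88. For XM_004249248.4 the values were 73.4 and 67.5 TPM in Stress, against 164 and 148 in Control, and 28.7 and 23.4 in Combo, against 57.4 and 58.9 in Hardening. XM_004241227.4 was scarce after chilling of hardened leaves, with 7.51 and 6.64 TPM in Combo against 22.6 and 20.4 TPM in Hardening. None of the 4 has a gene symbol beyond a locus number.

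The largest called fall in Stress belonged to XM_004230785.4 (LOC101255248), with 132 and 143 TPM against 508 and 473 TPM in Control leaves, a log2 change of -1.97 (SE 0.08, limma adjusted p = 1.04e-04). SAP8 fell as well, to 14.3 and 14.8 TPM in Stress leaves, against 32.2 and 29.8 TPM in Control leaves (log2 change -1.18, SE 0.07, limma adjusted p = 4.73e-04). In Combo against Hardening VGT1 had 1.06 and 1.39 TPM against 6.16 and 6.34 TPM, a log2 change of -1.65 (SE 0.42, limma adjusted p = 0.0429), but the sum over the transcripts of its gene changed by 0.02. MBF1a, ERF2, TIM10 and INFA each passed the adjusted test in 1 of these comparisons and stayed within a log2 change of 1.

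Most called transcripts on the polysome side were higher at 0 °C. In Stress against Control, the ranked transcripts had 1.08% called higher and 2.32% lower, a median log2 change of -0.16 and 73.4% below 0. The polysome side had 18 (12.0%) called higher and 1 (0.67%) lower, a median of 0.09 and 61 of 150 below 0. In Combo against Hardening, the ranked transcripts had 1.83% called higher and 4.22% lower, a median of -0.08 and 60.1% below 0. Of the 150 on the polysome side, 19 (12.7%) were called higher and 1 (0.67%) lower, with a median of 0.17 and 48 below 0. Without replicate 1, 12 and 0 of them were called higher in the 2 comparisons, and without replicate 2, 13 and 7. The total RNA change followed the number of conditions in which a transcript leaned to monosomes. In Stress against Control, the median was 0.06 in the 187 tested transcripts above the median ratio in no condition, -0.10 in 725 with 1 condition, -0.18 in 1251 with 2, -0.20 in 695 with 3 and -0.32 in the 201 with all 4. In Combo against Hardening it was 0.14, 0.03, -0.09, -0.16 and -0.23 in the same order. In Stress the calls followed the same order at its ends. They were 20 higher (10.7%) and 1 lower (0.53%) among the 187, and 0 higher and 14 lower (6.97%) among the 201. The groups were made from the ratios that chose the members, and the last group holds all members tested. Their order is thus a description and no further support for the falls of the members.

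**Figure D4:**
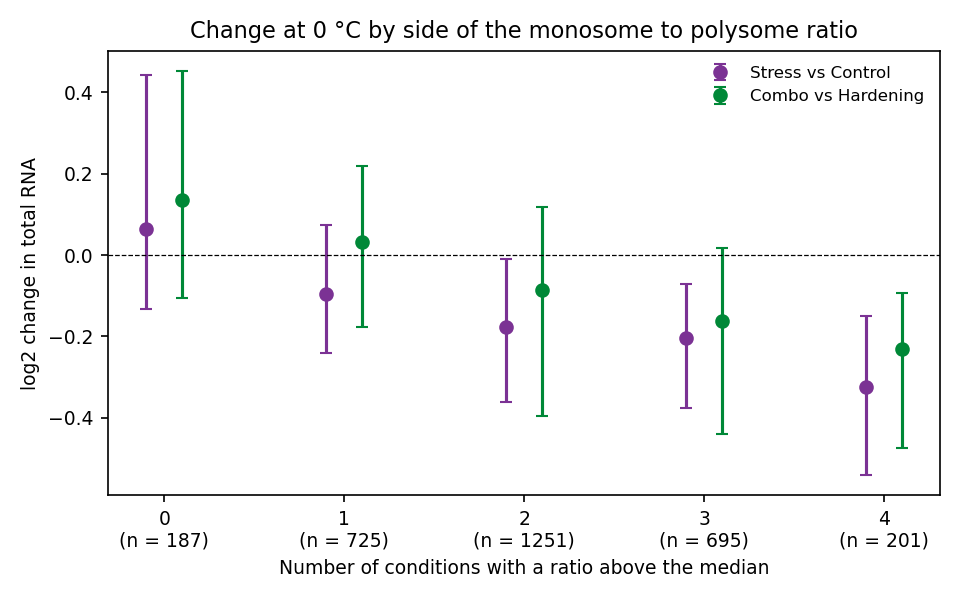
Median log2 change of total RNA at 0 °C (vertical axis) by the number of conditions in which a transcript's monosome to polysome ratio lay above the median (horizontal axis), for Stress against Control (purple) and Combo against Hardening (green). Bars span the quartiles over transcripts, and the medians run from 0.06 and 0.14 with no condition to -0.32 and -0.23 with all 4. The groups were made from the ratios that chose the members, so their order is a description without a test.

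The ratio of single conditions followed the total RNA change unevenly. Over 3059 transcripts, the change in Combo against Hardening correlated with the ratio in Combo at -0.64 and with that in the libraries labelled Stress at -0.44 (Pearson's r), but with that in Control at 0.06 and in those labelled Hardening at 0.19. The change in Stress against Control correlated with the ratio in Control at -0.36 and in the libraries labelled Hardening at -0.36, but with that in the libraries labelled Stress at -0.00 and in Combo at -0.15. The points of such a correlation share their libraries, so it is a description without a test. A choice by these ratios thus already bore on the total RNA change at 0 °C. Whether the falls of the members went beyond that was not tested.

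Hardening moved more transcripts, and more members were called lower than higher. In Hardening against Control, where the members stood near the background, 19 members (12.8%) were called higher and 35 (23.5%) lower, where the background was 14.5% higher and 16.3% lower over all transcripts and 14.5% higher and 21.4% lower over the ranked ones. The median log2 change of the members was -0.18, against -0.06 for the ranked transcripts. Without further scaling of the TPM, the median of all transcripts moved to 0.33, that of the members to 0.15, and 32 members were called higher and 27 lower. In Combo against Control, 15 members (10.1%) were called higher and 52 (34.9%) lower, where the background was 16.7% higher and 19% lower over all transcripts and 15% higher and 26.7% lower over the ranked ones. The median was -0.43, against -0.10 for the ranked transcripts, so the calls were further to the lower side than the background. These comparisons share the Control libraries.

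Several called falls with hardening were of transcripts abundant in Control leaves. NM_001246906.2 (LOC100736525) had 77.8 and 73.8 TPM in Combo leaves, against 1383 and 1174 TPM in Control leaves, a log2 change of -4.36 (SE 0.10, limma adjusted p = 7.81e-07). NM_001246905.1 (LOC544268) had 20.3 and 20.1 TPM in Hardening leaves, against 224 and 192 TPM in Control leaves (log2 change -3.63, SE 0.12). XM_010315883.3, at rank 3, had 5.92 and 6.96 TPM in Hardening, 2.70 and 0.935 in Combo, and 83.9 and 69.0 in Control (log2 changes -3.69 and -5.11). In the fraction libraries these transcripts were high under the label Hardening and low under the label Stress, as the monosome values of 556 and 579 TPM and of 92.6 and 117 TPM for NM_001246906.2 show.

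Rises with hardening were led by NM_001307959.1 (LOC101248524) and XM_004228294.4 (LOC101257793). The transcript NM_001307959.1 had 26.6 and 8.02 TPM in Hardening and 10.6 and 8.54 in Combo and was at or next to 0 in both Control libraries (log2 changes 3.85 and 3.30 on the log2(TPM + 1) scale). Its Hardening value was 3.04 to 4.69 with a replicate left out, and the sums over the transcripts of its gene changed by 1.54 and 1.58. XM_004228294.4 had 60.3 and 62.3 TPM in Hardening and 57.0 and 57.4 in Combo, against 12.2 and 6.12 in Control (log2 changes 2.37 and 2.30). SAP8 was higher too, with 118 and 114 TPM in Hardening and 98.9 and 94.1 in Combo, against 32.2 and 29.8 in Control (log2 changes 1.54 and 1.31, limma adjusted p = 1.10e-05 and 1.55e-05). INFA was lower, with 43.0 and 40.1 TPM in Combo, against 99.1 and 94.4 in Control (log2 change -1.51, SE 0.08, limma adjusted p = 1.34e-05). Dof22 was also lower, by -1.62 in Hardening and -2.17 in Combo. ERF2 had 147 and 146 TPM in Combo, against 127 and 106 TPM in Control, and was not called, with a log2 change of 0.03.

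**Figure D5:**
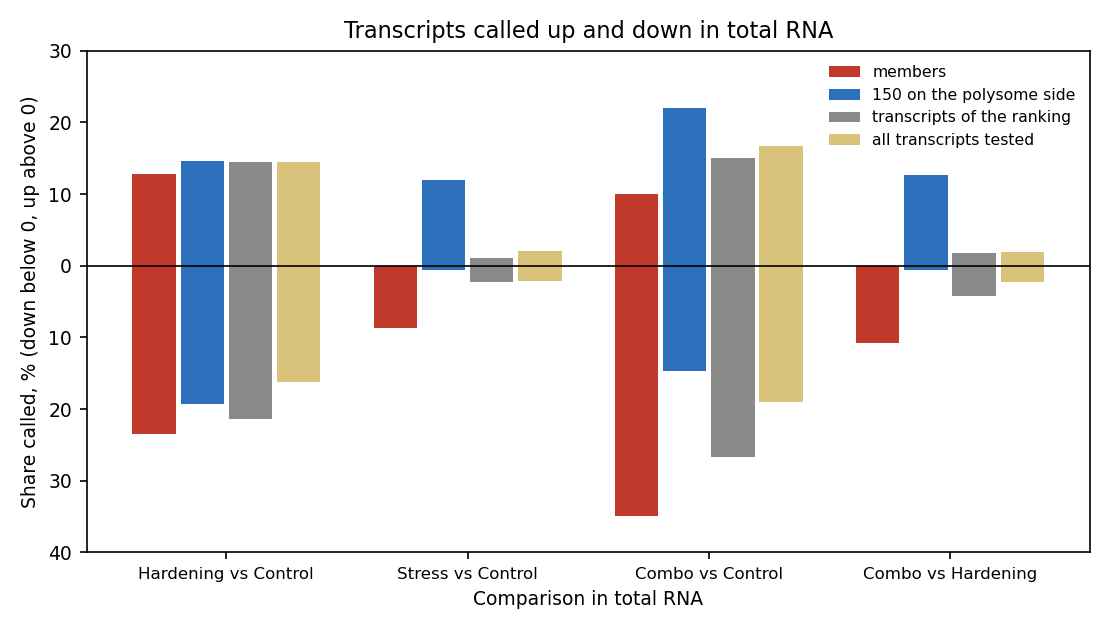
Share of transcripts called higher (above 0) and lower (below 0) in total RNA, in percent, for members (red), the polysome side (blue), the 3059 tested transcripts of the ranking (grey) and all 21979 tested (yellow), by comparison. In Stress against Control and Combo against Hardening the members have 8.72% and 10.7% lower and 0% higher, while with hardening they have both directions.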

How the data were processed

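TPM were computed by the authors with kallisto 0.50.0 from paired reads of 150 bases against transcripts of tomato assembly SL 3.1, and the deposited table holds these TPM for 24 libraries. TPM keep no depth, so no count test was made. Members, gene lists and tests were chosen with earlier results of these data known. Total RNA was scaled by trimmed means (30% of log ratios, 5% of levels), filtered at a mean of 1 TPM, transformed as log2(TPM + 1) and fitted with limma 3.58.1 in R 4.3.3 over all 4 conditions, 2 libraries each. The script was tested on simulated data. Other steps used Python 3.11.15, pandas 2.3.3 and numpy 2.4.6.

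Members named were the 6 highest scores, the 10 highest with a gene symbol, up to 2 rises and 2 falls per comparison, the 2 ranks on each side of the edge and members on a gene list. A ribosomal protein transcript among these is left out. Protein lengths, planned as a further result and naming rule, were not analysed because no protein table was used. An exact permutation test of 2 against 2 libraries cannot go below p = 0.333, so none is given. Same-numbered total RNA libraries of different conditions deviated together (r = 0.219 to 0.288 over 6 pairs of conditions), which need not mean a shared plant or batch. Alternatives were other pseudocounts, filters, scalings, list rules, gene sums, a replicate block and leaving out replicates. Lists chosen on Control and Combo for the tests were added after seeing the data.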

Additional observations from a re-analysis of the deposited data

Results flagged for a closer look

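For 17 of the members tested (11.4%), 5 of them named in the report, the change of total RNA at 0 °C differed between hardened and unhardened leaves, by the limma interaction of Combo against Hardening minus Stress against Control (Benjamini-Hochberg adjusted p under 0.05), where 14.0% of all transcripts and 23.0% of the ranked ones passed. XM_004230785.4 differed by 1.36 on the log2 scale (SE 0.11, adjusted p = 0.00169), with a change of -0.61 in hardened and -1.97 in unhardened leaves. SAP8 differed by 0.95 (SE 0.10, adjusted p = 0.00368), with -0.23 in hardened and -1.18 in unhardened leaves. ERF2 differed by 0.89 (SE 0.18, adjusted p = 0.0236), with 0.39 in hardened leaves, where its own adjusted p was 0.0853, and -0.49 in unhardened leaves. INFA differed by -0.67 (SE 0.12, adjusted p = 0.0151), with -0.70 in hardened and -0.03 in unhardened leaves. XM_004248265.4, next to last in the set, differed by -0.65 (SE 0.13, adjusted p = 0.0220), with -0.69 in hardened and -0.04 in unhardened leaves. Past a log2 difference of 1 were 5 members (3.36%), against 6.86% of all transcripts: XM_004230785.4 and, chosen after their values were seen, XM_004238883.4 (-1.46), NM_001246884.2 (-1.24), XM_019212596.2 (-1.17) and XM_004242542.4 (-1.12), which changed by -1.18 to -1.40 in hardened and by -0.21 to 0.06 in unhardened leaves.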

How the results depend on the processing

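The member list was sensitive to its rule. Of the 150 members, 94 were kept at a minimum of 5 TPM, 44 with the median in place of the lowest ratio and 80 to 82 with 1 replicate left out. At a minimum of 20 TPM, 89 members passed the filter and all 89 were kept. A list of 75 held 75 members by construction. With other pseudocounts, mean log2 values or 1 transcript per gene, 138 to 148 were kept. Lists chosen on Control and Combo alone shared 35 members and had median ratios of 0.46 in Combo and 0.85 in Control. Their calls in total RNA were 62 of 150 in Hardening against Control and 15 in Stress against Control. In Combo they were 83 against Control and 22 against Hardening. The shares called in that order were 30.8%, 4.19%, 35.8% and 4.19% of all transcripts. Of the 3059 ranked transcripts tested they were 35.9%, 3.40%, 41.7% and 6.05%. The median ratio in Stress was 0.41 to 0.46 with a replicate left out. With 1 replicate left out, the median of monosome to total RNA was 0.44 to 0.51 in Combo and 0.37 to 0.38 in Control, and that of polysome to total RNA was -0.22 to -0.090 in Control, and a pseudocount of 0.1 gave 0.38 for monosome to total RNA in Control.

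By adjusted p with no minimum change, 115 members passed in Hardening against Control, 39 in Stress against Control, 117 in Combo against Control and 43 in Combo against Hardening. Leaving out a replicate gave 53 to 56, 7 to 9, 63 to 64 and 0 to 6 calls in the same order. Without further scaling, falls made up 45.8% of the members called in Hardening against Control (64.8% with scaling) and 65.2% in Combo against Control (77.6%). With the replicate number as a block, 55, 14, 68 and 17 members were called in that order, and a shared number is no proof of pairing. For VGT1 in Combo against Hardening, the change of -1.65 became 0.018 with sums over the transcripts of its gene. The cause of these shifts was not tested. Of 96 alternative values for 12 named changes, 89 stayed on their side of the threshold, 6 lost the call (VGT1 without a filter and without each replicate, XM_026030892.1 in Stress without each replicate and XM_004232445.4 in Combo against Hardening without replicate 1) and 1 reversed. Protein length alternatives were not run. Depth limits are unknown in TPM.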
